A study of Homo sapiens with 4 samples.

Results

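The phosphatases of regenerating liver (PRL), PTP4A1, PTP4A2 and PTP4A3, were examined together with their magnesium transporter partners CNNM1 to CNNM4 in the B-CPAP line, which was derived from a papillary thyroid carcinoma. The 7 members were taken by symbol from a table of 59108 rows. The 2 shLDHA libraries, from cells carrying a short hairpin against lactate dehydrogenase A (LDHA), were compared with the 2 shGFP libraries, from cells carrying a control hairpin against green fluorescent protein. The hairpins were delivered by lentivirus and the infected cells were selected with puromycin, so that both groups are infected, selected cells of 1 cell line. More than 1 LDHA hairpin was used in the study, and the labels do not say which of them each shLDHA library carried, nor whether replicates came from separate cultures. The p-values therefore measure only the spread between these libraries. In cells in bulk, fewer cells of a kind and less RNA per cell cannot be told apart.

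PRL phosphatases are small cysteine phosphatases that end in a CAAX box, a short motif to which a farnesyl lipid is attached, and this lipid holds them at membranes. They bind the paired CBS domains of CNNM proteins, membrane proteins that act in magnesium efflux, and this binding is known to raise magnesium inside cells. PTP4A3, also called PRL-3, is best known from colorectal cancer, where its mRNA is abundant in liver metastases, and its 2 paralogs are made in most tissues.

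The family was selected on these data, since PTP4A3 had the highest fold change among protein-coding genes that averaged 5 FPKM or more and passed the test as higher. FPKM counts fragments relative to the length of the transcript and to the depth of the library. PTP4A3 stood first of 1844 such genes, at a log2 fold change of 3.09, and the next were DEPP1 at 2.98 and CCN5 at 2.90. Among all 13291 rows tested, many of them of low level or not protein-coding, it stood at place 68 by log2 fold change. The values of the members in this contrast are therefore given as a description, with no p-value.

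LDHA itself was measured at 175.53 and 167.8 FPKM in shLDHA cells, against 1186.37 and 1183.12 FPKM in shGFP cells, and its log2 fold change was -2.44 (SE 0.08, limma adjusted p = 0.00756). The level of the targeted gene thus went with the labels in all 4 libraries. Of the thyroid markers, PAX8, a transcription factor of follicular cells, stood between 65.66 and 99.37 FPKM, while TSHR and NKX2-1 were listed at 0 in every library, and TG and SLC5A5 did not exceed 0.12 FPKM. Of the epithelial markers KRT8 and KRT18 were abundant, whereas EPCAM, KRT19 and CDH1 did not exceed 0.2 FPKM, so that the line carries few of the defining transcripts of the differentiated thyroid. The leukocyte markers PTPRC and CD3E and the endothelial markers CDH5 and KDR were at 0 in every library, and COL1A2, COL3A1 and DCN of the fibroblast list did not exceed 0.02 FPKM. Of the other fibroblast markers, LUM did not exceed 0.28 FPKM, COL1A1 reached 3.12 FPKM, and PDGFRB was lower, at 8.41 and 6.57 FPKM in shLDHA cells, against 15.24 and 16.95 FPKM in shGFP cells. Other single markers moved with the groups too. CD68 was higher, at 45.11 and 34.1 FPKM in shLDHA cells, against 30.33 and 29.9 FPKM in shGFP cells, and FOXE1 was lower, at 2.54 and 2.55 FPKM in shLDHA cells, against 5.35 and 5.83 FPKM in shGFP cells. Transcripts of the mitochondrial genome took 8.38% and 5.79% of the FPKM in shLDHA cells, against 12.8% and 12.4% in shGFP cells, and the part of these markers and transcripts in the values of the family was not tested. Estimated depth lay between 19300000 and 28000000 fragments per library. The second shLDHA library stood apart by the share of its FPKM on rows with no gene name, at 3.53%, against 0.36% to 0.44% in the other 3 libraries.

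PTP4A3 was the least abundant PRL transcript in shGFP cells and a major one in shLDHA cells. It measured 13.25 and 11.03 FPKM in shLDHA cells, against 1.54 and 1.87 FPKM in shGFP cells. The lower shLDHA library was thus several times above the higher shGFP library, and the groups did not overlap. After trimmed mean of M-values (TMM) scaling, which brings the typical gene of each library to a common level, PTP4A3 averaged 13.6 ± 0.364 FPKM in shLDHA cells and 1.51 ± 0.217 FPKM in shGFP cells (SD, n = 2 each). On the log2(FPKM + 0.1) scale its fold change was 3.09 (SE 0.16), that is 8.53-fold. At the estimated depths these levels stand for about 652 and 788 fragments in the shLDHA libraries, against about 86.8 and 111 in the shGFP libraries. The gene lies on chromosome 8, from 142402095 to 142442554 on the plus strand of GRCh37 in the GENCODE annotation, and its canonical transcript has 6 exons and 2849 bases with a GC content of 63.1%.

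PTP4A1 and PTP4A2 lay on the other side of the control. PTP4A1 measured 5.42 and 4.0 FPKM in shLDHA cells, against 11.33 and 10.61 FPKM in shGFP cells. Its log2 fold change after scaling was -0.88 (SE 0.13). PTP4A2, the most abundant PRL transcript in every library, measured 28.53 and 17.16 FPKM in shLDHA cells, against 45.46 and 47.40 FPKM in shGFP cells. Both genes were below every shGFP library in each shLDHA library, but the 2 shLDHA libraries differed far more from each other in PTP4A2 than the shGFP libraries did. Its log2 fold change was -0.72 (SE 0.19), and it was -0.98 without shLDHA replicate 1 and -0.46 without shLDHA replicate 2, the library that stands apart by its unnamed rows. The plots of the members by library show PTP4A3 and its paralogs on opposite sides of the control.

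**Figure D1:**
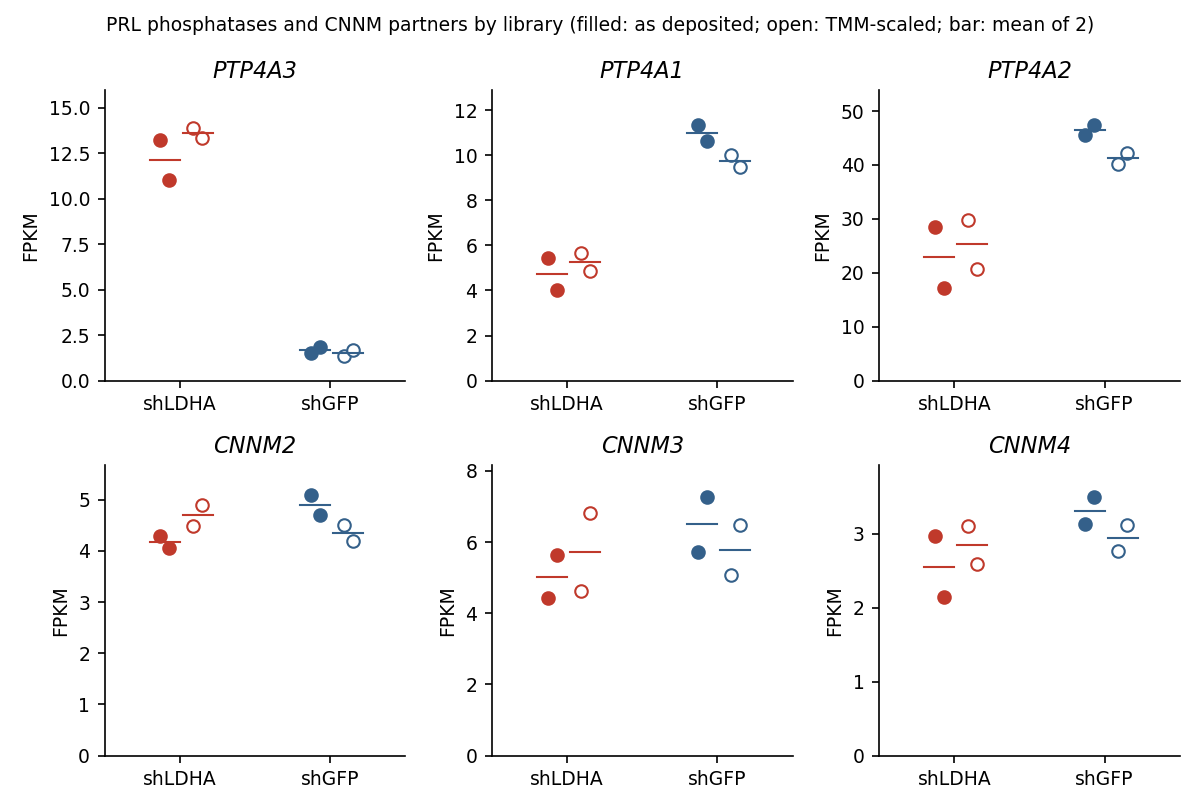
FPKM of each detected member by library in shLDHA and shGFP cells, 2 libraries each, with the y axis starting at 0 in every panel (filled points, values as deposited; open points, after TMM scaling; short bars, mean of the 2 libraries). PTP4A3 sits between 11.03 and 13.25 in shLDHA cells and between 1.54 and 1.87 in shGFP cells as deposited, PTP4A1 and PTP4A2 sit lower in shLDHA cells, and the scaled CNNM points overlap.

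Shares within a library do not depend on the scaling between libraries, and FPKM, being per length, can be set side by side between genes. Trends of fold change with transcript length or GC content can still change such shares. PTP4A3 made up 28.1% and 34.3% of the summed FPKM of the 3 PRL genes in shLDHA cells, against 2.64% and 3.12% in shGFP cells. PTP4A2 made up 60.4% and 53.3% in shLDHA cells, against 77.9% and 79.2% in shGFP cells. PTP4A1 made up 11.5% and 12.4% in shLDHA cells, against 19.4% and 17.7% in shGFP cells. The order of the family was therefore PTP4A2, PTP4A3, PTP4A1 in both shLDHA libraries, and PTP4A2, PTP4A1, PTP4A3 in both shGFP libraries. The ratio of PTP4A2 to PTP4A3 was 2.15 and 1.56 in shLDHA cells, against 29.5 and 25.3 in shGFP cells. The ratio of PTP4A2 to PTP4A1 was 5.26 and 4.29 in shLDHA cells, against 4.01 and 4.47 in shGFP cells, so that these values overlapped between the groups.

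**Figure D2:**
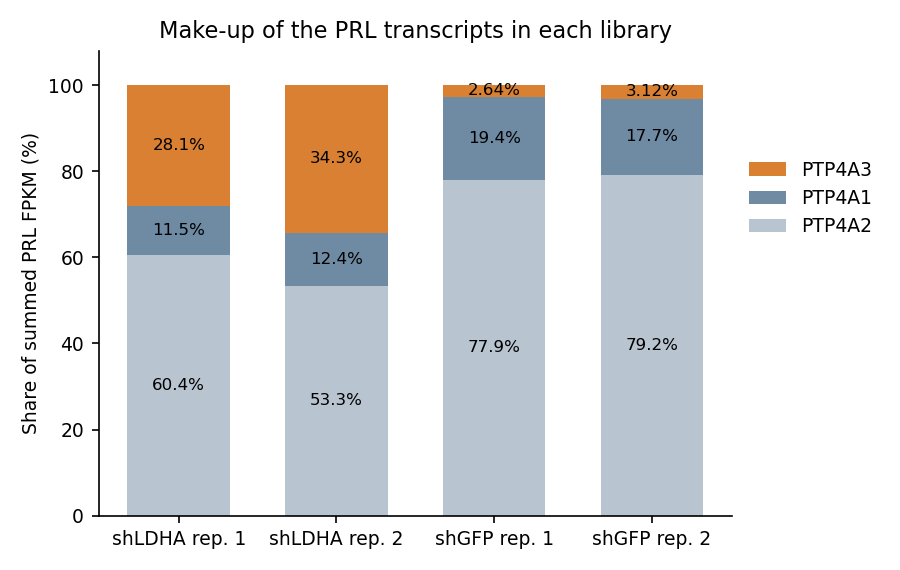
Stacked bars of the percentage of the summed PRL FPKM contributed by PTP4A3, PTP4A1 and PTP4A2 in each of the 4 libraries, as deposited. PTP4A3 contributes 28.1% and 34.3% in shLDHA cells and 2.64% and 3.12% in shGFP cells.

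The summed level of the 3 phosphatases moved less than its make-up. As deposited it was 47.2 and 32.19 FPKM in shLDHA cells, against 58.33 and 59.88 FPKM in shGFP cells. After TMM scaling it was 49.4 and 39.0 FPKM in shLDHA cells, against 51.6 and 53.4 FPKM in shGFP cells, and the first shLDHA library then stood close to the shGFP libraries while the second stayed lower.

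The CNNM partners, which carry magnesium across the cell membrane or regulate its passage, were not separated between the groups once the libraries were scaled. CNNM1 was listed at 0 in every library. CNNM2 measured 4.29 and 4.05 FPKM in shLDHA cells, against 5.10 and 4.70 FPKM in shGFP cells. CNNM3 measured 4.42 and 5.64 FPKM in shLDHA cells, against 5.73 and 7.27 FPKM in shGFP cells. CNNM4 measured 2.97 and 2.14 FPKM in shLDHA cells, against 3.13 and 3.50 FPKM in shGFP cells. As deposited, both shLDHA libraries lay below both shGFP libraries for all 3 genes, while after TMM scaling the groups overlapped for all 3. The scaled log2 fold changes were 0.11 (SE 0.14) for CNNM2, -0.03 (SE 0.25) for CNNM3 and -0.05 (SE 0.18) for CNNM4. The sign of CNNM2 depended on the scaling, with -0.23 as deposited and -0.01 under upper quartile scaling. The sum of the CNNM genes was 11.68 and 11.83 FPKM in shLDHA cells, against 13.96 and 15.47 FPKM in shGFP cells. The ratio of summed PRL to summed CNNM FPKM, which is free of scaling, was 4.04 and 2.72 in shLDHA cells, against 4.18 and 3.87 in shGFP cells, and these values overlapped.

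Of the 7 members, 6 passed the filter on low values. In the limma fit over all rows after TMM scaling, 2 of these 6 stood on the far side of an adjusted p of 0.05. These were PTP4A3, higher, and PTP4A1, lower, which is no test of members chosen by this contrast. Of all 13291 rows tested, 31.0% passed, 18.1% as higher and 12.9% as lower. As deposited, 3 of these 6 stood there, PTP4A2 being added as lower, and 904 of all rows tested were higher and 3114 lower. The 3 PRL genes, thus 3 of 6, did not overlap between the groups after scaling, where 72.5% of all rows tested did not overlap. Because the contrast chose the family, nothing is read from these counts. With 2 libraries in a group, separation of the groups was thus common among all rows. All calls given here need both shGFP libraries, since without shGFP replicate 1 or without shGFP replicate 2 limma called 0 rows, with 3419 and 3693 rows at an unadjusted p under 0.05.

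The scaling between libraries bears on the smaller values of the family. The median log2 fold change of all rows tested was -0.33 as deposited and -0.00399 after TMM scaling. As deposited, PTP4A3 was at 2.76, PTP4A1 at -1.22, PTP4A2 at -1.07, CNNM3 at -0.36 and CNNM4 at -0.38 on the log2 scale, so that each stood lower by about the shift of the median. PTP4A3 lay between 2.54, with a pseudocount of 1, and 3.17 under the other settings of scaling, pseudocount, filter and length correction, and between 2.95 and 3.23 when 1 library was left out.

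**Figure D3:**
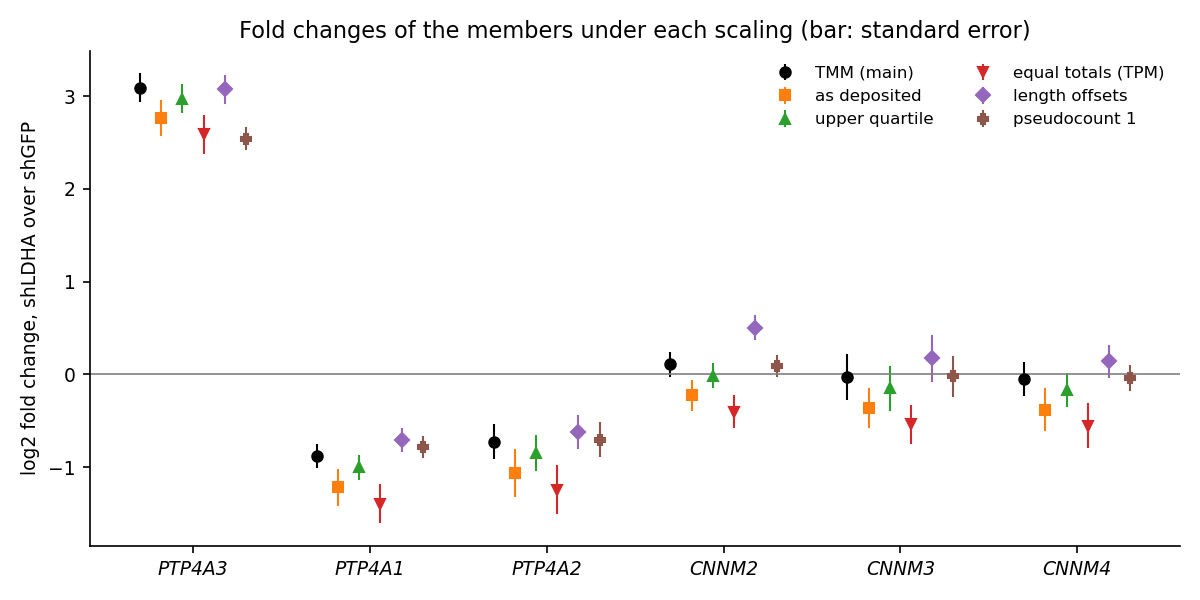
Log2 fold change (shLDHA over shGFP) of the 6 detected members under 6 settings of the processing, with standard errors as bars. PTP4A3 stays between 2.54 and 3.09 in the settings drawn, PTP4A1 and PTP4A2 stay below 0, and CNNM2, CNNM3 and CNNM4 lie on both sides of 0 depending on the setting.

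Fold changes in these libraries also went with transcript length. Over 11919 genes with a known length, the rank correlation across genes of log2 fold change with length was -0.41, and with GC content 0.395, and genes are not independent replicates. With the genes cut by length into 10 bins of like size, the median log2 fold change was 0.55 in the shortest bin and -0.43 in the longest. PTP4A3 belonged to bin 5, whose median was 0.00718, and its log2 fold change after removal of the length trend was 3.07. PTP4A1, of 4621 bases, changed to -0.70 and PTP4A2, of 3910 bases, to -0.62. CNNM2, whose transcript of 15857 bases falls in the longest bin, changed to 0.51. What part this length trend has in the values of the members was not tested beyond this correction. No setting corrected for GC content. The PTP4A3 transcript is richer in GC than those of PTP4A1 and PTP4A2, so the fold changes of these paralogs differ in the direction of the GC trend. The part of the GC trend in the values of the members was not tested.

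**Figure D4:**
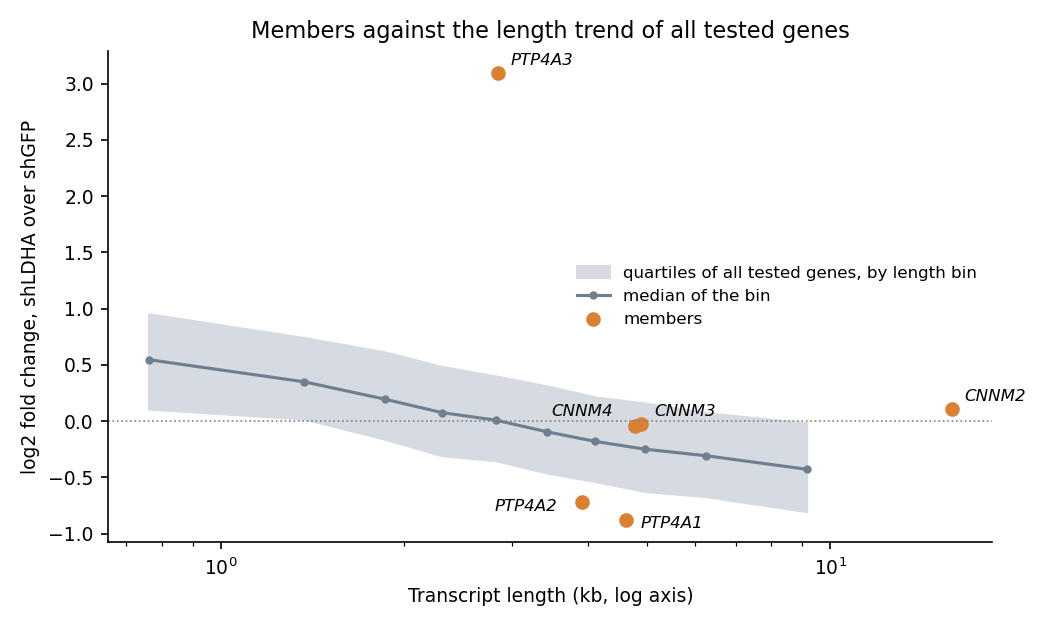
Log2 fold change (shLDHA over shGFP, after TMM scaling) of the detected members against transcript length in kilobases on a log axis, over the median (line) and the quartiles (band) of all tested genes in each of 10 length bins. PTP4A3 stands at 3.09 far above the band, PTP4A1 and PTP4A2 stand below it, and CNNM2 stands above the trend of the longest transcripts.

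The 3 PRL coding sequences are alike but not so alike that short fragments are shared. Translated from the canonical GENCODE transcripts, PTP4A1 and PTP4A3 have 173 residues and PTP4A2 has 167. The proteins of PTP4A1 and PTP4A2 were identical at 86.1% of aligned positions, those of PTP4A1 and PTP4A3 at 78.6%, and those of PTP4A2 and PTP4A3 at 75.7%. The coding bases were identical at 74.0%, 69.0% and 65.9% in the same order. No stretch of 50 bases of the PTP4A3 transcript occurred in an annotated transcript of another gene. The canonical PTP4A3 transcript therefore shares no run of 50 bases or more without a mismatch with an annotated transcript of its paralogs. Other transcripts of PTP4A3 were not searched.

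The values of PTP4A1 and PTP4A2 are less certain. Of the stretches of 50 bases in the PTP4A1 transcript, 99.98% also lie in a transcript of another gene model in the annotation used here. The search covered both strands, and the type and strand of that model were not recorded. Counting could split fragments between the models. A row of the table named AL135905.2, chosen after its values were seen and described only as a protein, shares the clone name of the antisense transcript of PTP4A1, and it measured 2.74 FPKM in both shLDHA libraries, against 5.81 and 6.42 FPKM in shGFP cells. The table gives no identifier that ties this row to that other gene model, and its direction was the same as that of PTP4A1. In PTP4A2, 5.13% of the stretches were shared with other genes, among them its processed pseudogenes. All 9 rows named as pseudogenes of PTP4A1 or PTP4A2 were at 0 in every library.

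The antisense rows of the family were near 0. AC100803.1, described as antisense to PTP4A3 and chosen after its values were seen, measured 0.05 and 0.03 FPKM in shLDHA cells, against 0.04 and 0.12 FPKM in shGFP cells. AL135905.1, antisense to PTP4A1 and chosen likewise, stood between 0.05 and 0.32 FPKM in the 4 libraries. CNNM3-DT, divergent to CNNM3, stood between 0 and 0.4 FPKM. Of the stretches of CNNM2, 16.9% were shared with its neighbour NT5C2 and other genes, and none of these lay in the coding part. The library kit named in the labels is not described there as marking the strand, and reads of overlapping genes may not be told apart.

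PTP4A1 and PTP4A2, the pair of paralogs that lay lower in shLDHA cells, were set side by side at their first listed RefSeq promoter windows, which run over 300 bases around the start. Letters were searched on both strands in these and in all 27058 windows of the table, one window a gene. The GC box GGGCGG was found in 44.5% of all windows. The letters CCAAT were found in 35.7% of them. The hypoxia core ACGTG was found in 21.5%. The E-box CACGTG, which contains that core, was found in 7.38%. The letters TATAAA were found in 12.01%. Every match stands in capitals. The first is the PTP4A1 window, chr6:63572230-63572529 on the plus strand of GRCh38.p14, and the second the PTP4A2 window, chr1:31938319-31938618 on the minus strand.
PTP4A1: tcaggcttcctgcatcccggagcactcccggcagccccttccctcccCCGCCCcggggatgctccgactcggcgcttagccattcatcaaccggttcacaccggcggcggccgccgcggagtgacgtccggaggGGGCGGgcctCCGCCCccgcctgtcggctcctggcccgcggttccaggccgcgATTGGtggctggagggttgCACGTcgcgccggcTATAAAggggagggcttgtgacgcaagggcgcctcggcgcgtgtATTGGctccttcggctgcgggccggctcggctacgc
PTP4A2: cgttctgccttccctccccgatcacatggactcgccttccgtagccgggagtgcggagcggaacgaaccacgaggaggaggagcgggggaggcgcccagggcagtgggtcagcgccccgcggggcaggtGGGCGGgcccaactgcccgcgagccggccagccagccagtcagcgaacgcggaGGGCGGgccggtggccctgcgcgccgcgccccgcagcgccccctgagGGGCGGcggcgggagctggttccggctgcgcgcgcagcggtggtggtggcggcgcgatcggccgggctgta
Both windows held 3 GC boxes. The PTP4A1 window also held 2 CCAAT letters, 1 TATAAA and 1 ACGTG, none of which was found in the PTP4A2 window. The GC content was 72.7% in PTP4A1 and 77.3% in PTP4A2. A match describes these letters only.

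The genes that lie next to the PRL genes did not share one direction. The RefSeq order of protein-coding genes, 4 on each side, was used for this. Around PTP4A3, 4 of 8 neighbours passed the filter. TSNARE1, a SNARE domain gene, measured 12.62 and 10.14 FPKM in shLDHA cells, against 6.42 and 5.29 FPKM in shGFP cells, and was higher by 1.28 on the log2 scale (SE 0.14, limma adjusted p = 0.00988). PTK2, which codes for focal adhesion kinase, was lower at -0.64 (SE 0.08, limma adjusted p = 0.0118), and SLC45A4, a solute carrier, at -0.90 (SE 0.20, limma adjusted p = 0.0361), a call that was lost with length offsets (limma adjusted p = 0.0885). DENND3 was at -0.21 and did not pass. The nearest upstream neighbour GPR20, as well as ADGRB1 and ARC, stayed under the filter, with no value above 0.24 FPKM.

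Around PTP4A2, KPNA6, an importin, was lower at -0.77 (SE 0.11, limma adjusted p = 0.0155) and ADGRB2, an adhesion receptor, was higher at 0.42 (SE 0.11, limma adjusted p = 0.0485). ADGRB2 was at 0.08 as deposited and at -0.10 with equal totals per library. PEF1, COL16A1, SPOCD1, KHDRBS1 and TMEM39B lay between -0.35 and 0.12 and did not pass after TMM scaling. As deposited, SPOCD1 passed as lower at -0.69 (limma adjusted p = 0.0404). With equal totals per library, SPOCD1 at -0.87, COL16A1 at -0.65 and KHDRBS1 at -0.44 passed as lower (limma adjusted p = 0.0222, 0.0370 and 0.0468). Around PTP4A1, PRIM2, FKBP1C, PHF3 and EYS were tested and none passed after TMM scaling. As deposited, PRIM2 at -0.68, FKBP1C at -0.62 and PHF3 at -1.21 passed as lower (limma adjusted p = 0.0416, 0.0497 and 0.0383), and with length offsets PRIM2 and FKBP1C did so (limma adjusted p = 0.0246 and 0.0281). PRIM2 at -0.86, FKBP1C at -0.79 and PHF3 at -1.37 passed as lower with equal totals per library too (limma adjusted p = 0.0231, 0.0264 and 0.0250). Upper quartile scaling gave lower calls for PRIM2 and PHF3 (limma adjusted p = 0.0433 and 0.0440). PHF3 measured 0.67 and 0.52 FPKM in shLDHA cells, against 1.60 and 1.41 FPKM in shGFP cells. EYS, which codes for a protein of photoreceptors, measured 9.92 and 14.2 FPKM in shLDHA cells, against 13.53 and 3.6 FPKM in shGFP cells, and its groups overlapped.

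Among the 6767 protein-coding genes averaging 5 FPKM or more, 5 were most like PTP4A3 over the 4 libraries by Euclidean distance of the centred log2 values. CCN5, a matricellular protein, was nearest at a distance of 0.296 and measured 11.81 and 8.90 FPKM in shLDHA cells, against 1.34 and 2.01 FPKM in shGFP cells. DEPP1, a gene known to be induced by progesterone and by FOXO factors, followed at 0.329 with 63.46 and 42.58 FPKM in shLDHA cells, against 8.37 and 8.09 FPKM in shGFP cells. SMIM1, which carries the Vel blood group, was at 0.580, the kinase CDK18 at 0.629 and FXYD2, the gamma subunit of the sodium pump, at 0.630. FXYD2 measured 56.26 and 44.01 FPKM in shLDHA cells, against 8.22 and 13.69 FPKM in shGFP cells. Over 4 libraries of 2 groups this likeness mostly describes a fold change of similar size.

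Other carriers and regulators of magnesium were examined in a list of 19 genes without the CNNM family. Of these, 15 passed the filter, 1 was higher and 4 were lower in shLDHA cells, and the list median was -0.50 on the log2 scale, where the median of all rows tested was -0.00399. That list median is not corrected for transcript length. SLC41A2, whose value is the list median, was at -0.26 with length offsets. SLC41A1, a sodium-magnesium exchanger of the cell membrane, measured 19.1 and 15.78 FPKM in shLDHA cells, against 31.95 and 32.19 FPKM in shGFP cells, and was lower at -0.54 (SE 0.08, limma adjusted p = 0.0163). SLC41A3, its mitochondrial relative, measured 23.87 and 23.03 FPKM in shLDHA cells, against 15.99 and 17.51 FPKM in shGFP cells, and was higher at 0.82 (SE 0.11, limma adjusted p = 0.0131). These 2 paralogs of the carrier family thus differed in direction after TMM scaling. With equal totals per library SLC41A3 was at 0.31 and did not pass (limma adjusted p = 0.136). SLC41A2, a further paralog named after its value was seen, was at -0.50 and did not pass (limma adjusted p = 0.522), and its groups overlapped. NIPA2 was lower at -0.70 (SE 0.12, limma adjusted p = 0.0204), and MAGT1, also a subunit of the oligosaccharyltransferase, at -0.64 (SE 0.15, limma adjusted p = 0.0406). MRS2, the magnesium channel of the mitochondrial inner membrane, was the remaining gene that passed and was named after its value was seen, at -0.55 (SE 0.14, limma adjusted p = 0.0464). TRPM7, a channel with a kinase domain named in the same way, measured 0.32 and 0.58 FPKM in shLDHA cells, against 1.55 and 1.35 FPKM in shGFP cells, and did not pass (limma adjusted p = 0.0809). As deposited, 1 gene was higher and 6 were lower, and with length offsets, which remove the length trend, 2 were higher and 2 lower. MAGT1 and MRS2 lost their calls with length offsets (limma adjusted p = 0.0798 and 0.0715).

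All 5 genes of the list of enzymes that lipidate and process a CAAX end were tested, and 2 were higher and 2 lower in shLDHA cells, with a list median of -0.39. ICMT, which methylates the processed end, measured 15.84 and 14.21 FPKM in shLDHA cells, against 33.66 and 33.84 FPKM in shGFP cells, and was lower at -0.82 (SE 0.08, limma adjusted p = 0.00897). ZMPSTE24, the protease that also trims prelamin A, measured 2.25 and 2.39 FPKM in shLDHA cells, against 7.68 and 6.28 FPKM in shGFP cells, and was lower at -1.21 (SE 0.19, limma adjusted p = 0.0173). RCE1, the other CAAX protease, was higher at 0.59 (SE 0.09, limma adjusted p = 0.0163). FNTA, the alpha subunit of farnesyltransferase, was higher at 0.54 (SE 0.13, limma adjusted p = 0.0391). FNTB, the beta subunit that pairs with it, was at -0.39 and did not pass after TMM scaling (limma adjusted p = 0.0580). FNTB did pass as lower as deposited, at -0.73, and with length offsets, at -0.43 (limma adjusted p = 0.0376 and 0.0434). As deposited, 0 genes were higher and 3 lower, with RCE1 at 0.25 and FNTA at 0.20, and with length offsets they were at 0.24 and 0.26 (limma adjusted p = 0.0759 and 0.212), so that both higher calls rested on the setting.

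Of 19 genes whose proteins have been linked to PRL phosphatases as binders or downstream factors, 17 were tested, and 5 were higher and 2 lower, with a list median of 0.14. FKBP8, a chaperone of the mitochondrial surface, measured 823.96 and 631.73 FPKM in shLDHA cells, against 423.44 and 430.91 FPKM in shGFP cells, and was higher at 1.098 (SE 0.09, limma adjusted p = 0.0077). NCL, the nucleolar protein nucleolin, measured 67.84 and 53.74 FPKM in shLDHA cells, against 138.29 and 142.74 FPKM in shGFP cells, and was lower at -0.88 (SE 0.08, limma adjusted p = 0.00855). The kinase SRC was higher at 0.47 (SE 0.07, limma adjusted p = 0.0178) and the potassium channel KCNN4 at 0.52 (SE 0.09, limma adjusted p = 0.0200). Among the other genes that passed, named after their values were seen, RHOC was higher at 0.46 and STAT3 lower at -0.49. CSK, the kinase that restrains SRC, was at 0.01 and EZR, which codes for ezrin, at -0.21, and neither passed after TMM scaling. EZR did pass as lower as deposited, at -0.55 (limma adjusted p = 0.0363), while CSK did not. As deposited, 1 gene was higher and 5 were lower, and with equal totals per library SRC was at -0.05 and KCNN4 at -0.00324. KCNN4, RHOC and STAT3 lost their calls with length offsets (limma adjusted p = 0.0515, 0.953 and 0.0604), and SRC, KCNN4 and RHOC did not pass as deposited.

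Among 21 genes of the CDC14 group and of the atypical dual specificity phosphatases, relatives of the PRL family among the cysteine phosphatases, 14 were tested, 2 were higher and 0 were lower, with a list median of -0.06. DUSP23 measured 145.04 and 125.61 FPKM in shLDHA cells, against 93.51 and 103.87 FPKM in shGFP cells, and was higher at 0.80 (SE 0.09, limma adjusted p = 0.00977). DUSP28 measured 6.41 and 6.78 FPKM in shLDHA cells, against 3.87 and 3.64 FPKM in shGFP cells, and was higher at 1.13 (SE 0.16, limma adjusted p = 0.0145). DUSP23, whose transcript has 797 bases, was at 0.26 with length offsets and no longer passed (limma adjusted p = 0.123), nor did it pass as deposited or with equal totals (limma adjusted p = 0.0556 and 0.178). Without scaling 1 gene of the list was higher and 2 were lower. Calls made up 33.3% of the tested magnesium genes, 41.2% of the PRL partners and 14.3% of the related phosphatases, with 4 of 5 in the CAAX list, beside 31.0% of all rows tested.

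**Figure D5:**
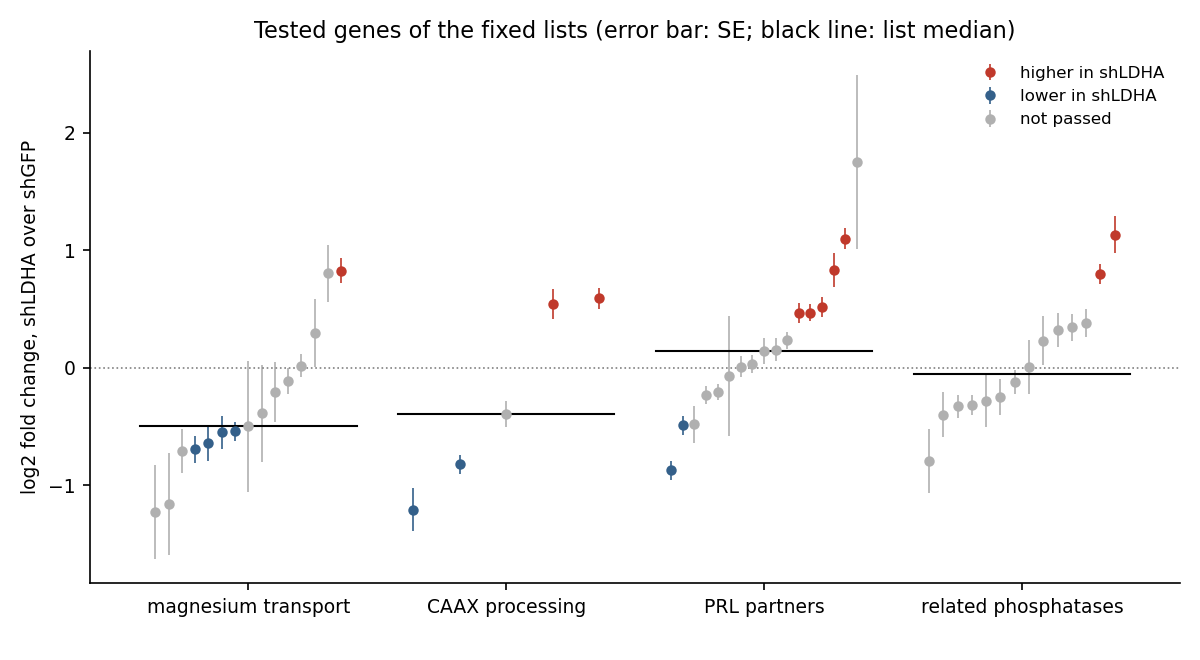
Log2 fold change (shLDHA over shGFP, after TMM scaling) of each tested gene in the 4 lists, sorted within a list, with standard errors as bars and the list median as a black line (red, higher in shLDHA cells; blue, lower; grey, not passed). Each list spreads over both signs, and the list medians are -0.50, -0.39, 0.14 and -0.06 from left to right.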

How the data were processed

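RNA-Seq of 2 shLDHA and 2 shGFP libraries of B-CPAP cells was analysed, grouped by the labels. The authors deposited FPKM, rounded to 2 decimals, in a table presented as counts, so the edgeR count test of the authors' methods could not be used here. Those methods name STAR, HTSeq and hg19, while HISAT2 and hg38, beside Trim Galore, stand in the submitters' processing notes, so the build behind the table is unclear. Gene locations, lengths and transcripts were taken from GENCODE on GRCh37, and promoter windows from RefSeq on GRCh38.p14. The 224 unnamed rows and 27 rows whose names had become dates were left out, and where a symbol stood on several rows the one with the highest mean was taken for lists.

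Values were scaled by TMM without weights (30% trim of ratios, 5% of levels), a pseudocount of 0.1 was added, and limma (version 3.58.1, R 4.3.3) was fitted with a variance trend to the 13291 rows that reached 0.5 FPKM in at least 2 libraries. Calls were made at a Benjamini-Hochberg adjusted p under 0.05. The code was tested on simulated data. Depth was estimated from the steps of low values, assuming fragments of 300 bases, and 72.7% to 86.9% of those values came within 0.15 of a whole fragment. Fragment numbers are therefore approximate. Alternatives were other scalings, pseudocounts, no filter, length offsets, a replicate block and leaving out each library.

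The members and the lists were chosen with earlier results of these data known. Named were LDHA, the members, up to 4 called genes of each list by lowest p, tested neighbours of the PRL genes, the 5 genes most like PTP4A3, and rows named after a member. Some genes of the lists and marker sets are not reported here by name.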

Additional observations from a re-analysis of the deposited data

How the results depend on the processing

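PTP4A3 was at 2.76 without scaling, at 2.59 with equal totals per library and at 2.54 with a pseudocount of 1, and the direction of PTP4A3, PTP4A1 and PTP4A2 was kept in every alternative run. Over all rows 904 were higher and 3114 lower as deposited, 608 higher and 4518 lower with equal totals, 960 lower and 1649 higher of 22087 without the filter, and 1895 higher and 2458 lower under upper quartile scaling. Leaving out 1 library gave 0 to 2732 higher and 0 to 1759 lower calls. Without shGFP replicate 1 or shGFP replicate 2, limma called 0 rows, while 3419 and 3693 rows had an unadjusted p under 0.05. The lone shGFP library is then assumed to vary like the other group. Calls in the magnesium list were 3 without the filter and 0 to 5 with 1 library left out. The CAAX list had 0 to 4 and the PRL partners 0 to 9 in the same way. The related phosphatases had 4 calls under upper quartile scaling, 7 with equal totals, 4 with length offsets, and 0 to 5 with 1 library left out. With equal totals, ADGRB2 was at -0.10, KHDRBS1 at -0.44, SRC at -0.0519 and KCNN4 at -0.00324, each with its sign turned.

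The replicate numbers do not pair the libraries by the labels. With the number as a replicate block, 2209 rows were higher and 1233 lower, and of the 35 genes named by rule outside the family, ADGRB2, SLC45A4 and MAGT1 no longer passed (adjusted p = 0.0577, 0.0649 and 0.0660). The magnesium list then had 2 higher and 2 lower calls, MRS2 being lost as well. The differences between replicates 1 and 2 correlated at 0.118 across rows. The shLDHA pair differed by a median of 0.217 on the log2 scale and the shGFP pair by 0.125, and 2 libraries a group limit every error given here.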
